A study of Homo sapiens with 18 samples.

Results

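The genes described here are 9 secreted cytokines and 1 adhesion receptor of MDA-MB-231 cells, a triple-negative human breast cancer line: IL11, IL6, LIF, CXCL8, CXCL1, CXCL2, CSF1, CSF2, IL1B and ICAM1. They were taken by symbol from the 57820 genes of the count table, and all 10 had enough counts to be tested. The list was drawn up with earlier results of these libraries known, and IL11, CSF1 and ICAM1 were chosen by their fold changes against the control siRNA, so those fold changes are given as a description. RNA was sequenced 72 h after lipofection of siRagC1 or siRagC2, a pair of siRNAs against RagC, or of a control siRNA (siCtrl), with 6 libraries per group and 18 in all. The RRAGC gene encodes RagC, a small GTPase needed to bring the growth-controlling kinase complex mTORC1 to the lysosome, and the purpose stated was to find genes that respond to mTORC1 repression. All groups, controls included, went through lipofection. The labels number the libraries as biological replicates without saying whether they were separate cultures, so the p-values below reflect only variation among these libraries, which may be technical. Library codes put replicates 1 and 2 of each group in a series D1103 and replicates 3 to 6 in a series D1221, and no source used here says what a series is.

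IL11, IL6 and LIF belong to the IL6 family, whose members bind a receptor of their own and then signal through the shared chain gp130 (IL6ST) to JAK kinases and STAT3. CXCL8, CXCL1 and CXCL2 are chemokines that attract neutrophils through CXCR1 and CXCR2. CSF1 drives the growth of macrophages and osteoclast precursors, CSF2 acts on granulocytes and macrophages, IL1B is a secreted inflammatory cytokine, and ICAM1 is a surface receptor for leukocyte integrins. Many of these genes are textbook targets of the transcription factors NF-kB and AP-1. IL11 made by breast cancer cells, including derivatives of this line, is known for its part in bone metastasis.

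The promoters of the genes that changed, and of the chemokines, are shown because IL11 differs from ICAM1 and the chemokines in the motifs found there. They are the 250 bases before each start site from RefSeq (GRCh38.p14), a later build than the hg19 used for the counts. 8 of the 10 genes matched the promoter table; LIF and CSF1 did not. IL11 lies at chr19:55370464-55370713 on the minus strand, ICAM1 at chr19:10270870-10271119 on the plus strand, CXCL8 at chr4:73740319-73740568 on the plus strand, CXCL1 at chr4:73869143-73869392 on the plus strand and CXCL2 at chr4:74099196-74099445 on the minus strand. Each is printed 5′ to 3′ on its gene's strand. Capitals mark GGNNTTTCC on either strand (an NF-kB type of site), TGANTCA (an AP-1 site, which reads alike on either strand up to its middle base) and TATAAA on the forward strand. No hits overlapped.
IL11: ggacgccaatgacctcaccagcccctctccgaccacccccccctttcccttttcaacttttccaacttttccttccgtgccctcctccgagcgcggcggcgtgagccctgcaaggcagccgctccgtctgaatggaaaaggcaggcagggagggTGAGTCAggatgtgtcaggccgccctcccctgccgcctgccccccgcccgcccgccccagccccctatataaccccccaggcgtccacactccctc
ICAM1: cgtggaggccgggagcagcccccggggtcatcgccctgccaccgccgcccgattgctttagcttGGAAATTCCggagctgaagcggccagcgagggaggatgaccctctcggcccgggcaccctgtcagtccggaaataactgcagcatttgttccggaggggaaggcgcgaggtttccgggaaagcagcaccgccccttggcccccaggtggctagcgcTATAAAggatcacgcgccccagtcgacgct
CXCL8: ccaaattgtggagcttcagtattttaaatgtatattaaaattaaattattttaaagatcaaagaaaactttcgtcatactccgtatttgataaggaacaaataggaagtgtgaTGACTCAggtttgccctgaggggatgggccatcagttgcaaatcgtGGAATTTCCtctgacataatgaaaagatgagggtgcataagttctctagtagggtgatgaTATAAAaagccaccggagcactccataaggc
CXCL1: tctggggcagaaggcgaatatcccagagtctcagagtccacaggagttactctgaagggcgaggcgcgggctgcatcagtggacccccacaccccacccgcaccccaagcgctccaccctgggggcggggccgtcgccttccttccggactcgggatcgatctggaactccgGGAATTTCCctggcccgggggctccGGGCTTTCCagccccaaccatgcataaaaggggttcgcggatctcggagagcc
CXCL2: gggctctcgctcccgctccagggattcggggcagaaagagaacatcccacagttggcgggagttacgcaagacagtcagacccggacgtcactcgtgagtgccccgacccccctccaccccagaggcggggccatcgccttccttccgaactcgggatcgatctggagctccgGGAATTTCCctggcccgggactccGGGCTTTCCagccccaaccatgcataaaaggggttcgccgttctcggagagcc

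The NF-kB type of sequence was present in 5 of the 8 promoters, those of IL6, CXCL8, CXCL1, CXCL2 and ICAM1, against 5.48% of 35116 human promoters of the same length. CXCL8, CXCL1 and CXCL2 shared the letters GGAATTTCC, starting at -91, -78 and -77 from the start site, and ICAM1 had the same letters on the other strand, starting at -186. CXCL1 and CXCL2 also shared a second copy, GGGCTTTCC, at -53 in each, and their windows were 70.4% identical when aligned. IL11 had no such letters in this window and instead had the AP-1 sequence TGAGTCA at -96. The AP-1 sequence was found in 2 of the 8 promoters, IL11 and CXCL8, against 6.57% of all promoters. CACGTG, the core of the sequence bound by TFEB and its relatives, was in 0 of the 8, against 6.34% of all. CSF2 and IL1B had none of the motifs searched.

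The libraries held 14.8 M to 71.6 M counts, with medians of 36.1 M for siRagC1, 24.6 M for siRagC2 and 21.4 M for siCtrl, and 15307 genes passed the filter on low counts. RRAGC, the targeted gene, stood at 20.2% to 52.2% of its same-numbered siCtrl library with siRagC1, and at 28.5% to 65.6% with siRagC2. Its log2 fold change was -1.43 ± 0.17 (SE) with siRagC1 and -1.20 ± 0.17 with siRagC2. CPM here and below is the count scaled to library size with TMM factors. Markers fixed for a mesenchymal-type breast cancer line summed to 7655 to 9520 CPM with siRagC1, 7871 to 8935 CPM with siRagC2 and 7540 to 9478 CPM with siCtrl, a sum led by VIM. CAV1 of that list, a caveolar coat protein, fell with both siRNAs (log2 fold changes -0.17 ± 0.04 and -0.19 ± 0.04, edgeR adjusted p = 0.0312 and 0.0131). SPARC, also of that list, averaged only 1.03 CPM with siCtrl. The 8 luminal and epithelial markers summed to 852 to 1098 CPM with siRagC1, 894 to 1079 with siRagC2 and 742 to 1065 with siCtrl, led by KRT8. Of these, ESR1 and PGR had 24 and 51 counts in all libraries together. edgeR called 0 of the 6 tested luminal and epithelial markers with either siRNA. The 10 leukocyte and macrophage markers summed to 8.70 to 11.6, 8.27 to 11.6 and 9.17 to 11.2 CPM in the same order. Of these CSF1R made up most. CD14, PTPRC and LYZ had 347, 227 and 215 counts in all libraries together, and TYROBP had 0. edgeR called 0 of the 4 tested leukocyte markers with either siRNA; LYZ and PTPRC were lower with siRagC1 at an unadjusted p under 0.05 (-1.04 ± 0.34 and -0.59 ± 0.28, adjusted p = 0.107 and 0.286), as was LYZ with siRagC2 (-0.81 ± 0.34, adjusted p = 0.197). limma-voom called 1 of them lower with siRagC1, and DESeq2 called 0. The 4 matched endothelial markers summed to 4.84 to 6.02, 5.06 to 7.61 and 4.41 to 5.82 CPM. KDR made up most of that sum, with a log2 fold change of 0.32 ± 0.10 with siRagC2 (adjusted p = 0.0818; with the replicate block, 0.33 and adjusted p = 0.0222). The 7 fibroblast markers summed to 28.9 to 43.7 CPM with siRagC1, 27.4 to 79.9 CPM with siRagC2 and 28.5 to 47.6 CPM with siCtrl, and COL1A1 rose with siRagC2 (log2 fold change 0.75 ± 0.19, edgeR adjusted p = 0.0440), a call lost with the block (adjusted p = 0.0673). Of the other 6 fibroblast markers, PDGFRB had 3637 counts in all libraries together, COL1A2 359, LUM 303, DCN 35, COL3A1 30 and PDGFRA 3. The part of these markers in the cytokine values was not tested.

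IL11 was lower with both siRNAs, and CSF1 and ICAM1 were higher with siRagC2, while the other 7 genes did not pass the threshold with either siRNA. A gene passed when edgeR's quasi-likelihood test, with a term for the code series, gave p under 0.05 after Benjamini-Hochberg adjustment across the 15307 genes. Before adjustment, 2613 of these genes had an edgeR p under 0.05 with siRagC1 and 2833 with siRagC2. Counts at an unadjusted p under 0.05 in this report are to be read against those numbers. With siRagC1, 1 of the 10 genes passed, against 2.04% of all tested genes. With siRagC2, 3 of the 10 passed, against 3.23% of all tested genes. Since IL11, CSF1 and ICAM1 were chosen by this contrast, nothing is read from those shares. The median log2 fold change of the 10 genes was 0.02 with siRagC1 and -0.06 with siRagC2, against 0.0051 and 0.0047 over all genes. 5 of the 10 had a positive value with siRagC1 and 4 with siRagC2, against 51.7% of all genes in each comparison. The genes were noisier than most: their median SE was 0.14 in each comparison, against 0.073 and 0.074 over all genes. Over both series together, the libraries of each siRNA overlapped those of siCtrl for all 10 genes; among all genes, 0.83% did not overlap with siRagC1 and 1.14% with siRagC2. Both comparisons use the same 6 control libraries. In RNA from whole cultures, fewer cells making a transcript and less transcript per cell cannot be told apart.

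**Figure D1:**
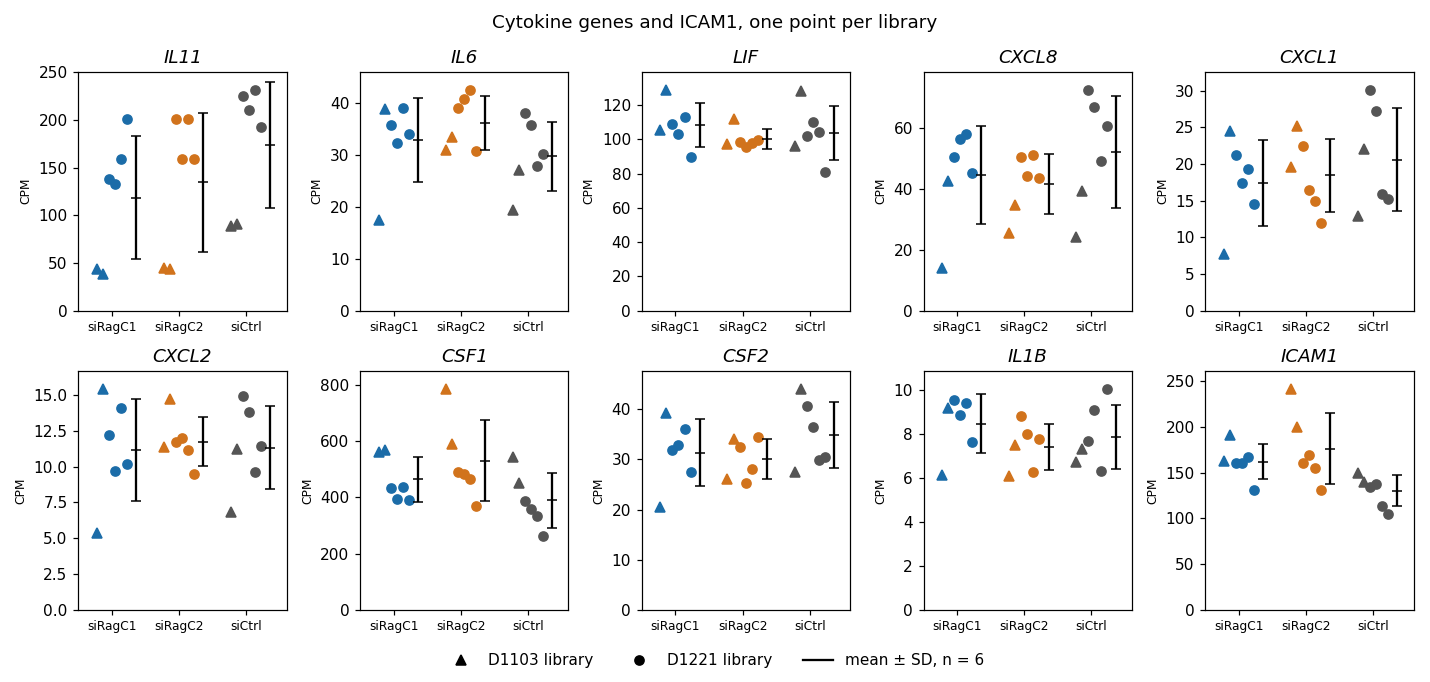
CPM of each gene (y axis, from 0) in each library of siRagC1, siRagC2 and siCtrl (x axis); triangles are D1103 and circles D1221 libraries, and bars give the mean ± SD of the 6 libraries. IL11 separates by series within every group, with D1103 libraries between 37.9 and 90.6 CPM and D1221 libraries between 132 and 232 CPM.

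**Figure D2:**
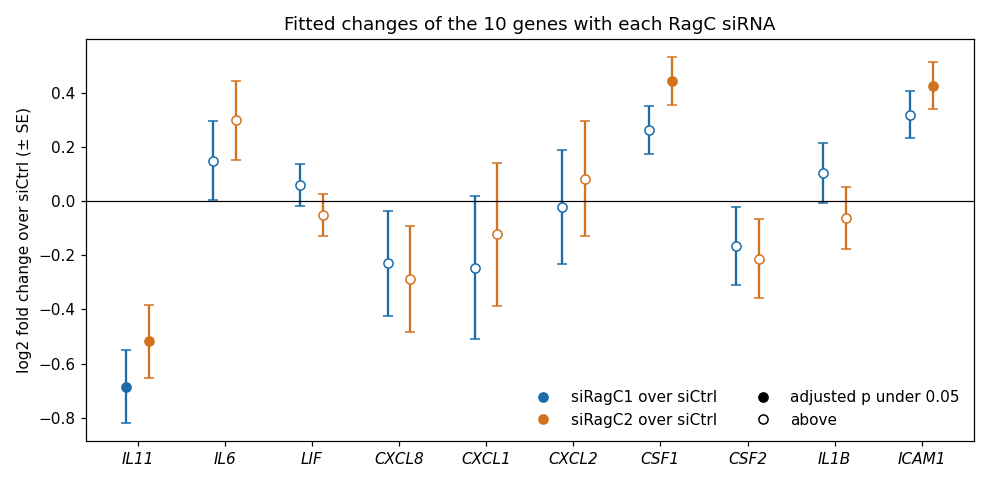
Log2 fold change over siCtrl (y axis, ± SE) of the 10 genes (x axis) with siRagC1 and siRagC2, from 6 libraries per group; filled points passed an adjusted p under 0.05. IL11 lies below 0 with both siRNAs, at -0.69 and -0.52, and CSF1 and ICAM1 lie above it, with filled points for siRagC2.

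IL11 (ENSG00000095752) was the one IL6 family cytokine among the 10 genes that fell. In the D1103 libraries it stood at 43.6 and 37.9 CPM with siRagC1, at 44.5 and 43.1 CPM with siRagC2, and at 89.0 and 90.6 CPM with siCtrl. Within D1103, then, every knock-down library lay at about the same level and below both controls; non-overlap of this kind with 2 libraries against 2 was found for 48.3% and 50.2% of all genes. In the D1221 libraries it stood at 138, 132, 159 and 201 CPM with siRagC1, at 201, 159, 201 and 159 CPM with siRagC2, and at 225, 210.5, 232 and 193 CPM with siCtrl. Here the groups overlapped, because siRagC1 replicate 6 and siRagC2 replicates 3 and 5 stood above siCtrl replicate 6. Against the same-numbered control, IL11 was lower in 5 of 6 pairs with siRagC1, at 41.9% to 68.6% in those and at 104% in the sixth. With siRagC2 it was lower in 6 of 6 pairs, at 47.6% to 89.5%.

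Over both series IL11 averaged 119 ± 64.9 CPM with siRagC1, 135 ± 72.9 CPM with siRagC2 and 173 ± 66.1 CPM with siCtrl (SD, n = 6 each), where the SD holds the difference between series. On the log2 scale IL11 changed by -0.69 ± 0.13 (SE) with siRagC1 and -0.52 ± 0.13 with siRagC2, both past the threshold. With siRagC1 the call was lost without siRagC1 replicate 2 (-0.63, edgeR adjusted p = 0.0540). With no series term both calls were lost (-0.55 and -0.36, adjusted p = 0.734 and 0.862). With siRagC2 it was lost with the replicate number as a block (-0.52, adjusted p = 0.0701) and without any one of 9 libraries: siCtrl 1, 2 and 5 (adjusted p = 0.0955, 0.0884 and 0.0654), siRagC1 1 and 5 (0.0539 and 0.0544), and siRagC2 1, 2, 4 and 6 (0.118, 0.0994, 0.101 and 0.0630). The direction stayed negative in each of these fits. siRagC1 and siRagC2 differed by -0.17 ± 0.13 (adjusted p = 0.814), lower with siRagC1 in 5 of 6 pairs.

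The level of IL11 differed between the series in every group, and its fold change was nearer 0 in D1221. Its D1221 mean was 3.86 times its D1103 mean with siRagC1 (157 ± 30.9 against 40.8 ± 4.04 CPM; SD, n = 4 and 2), 4.11 times with siRagC2 (180.1 ± 24.4 against 43.8 ± 0.985 CPM) and 2.40 times with siCtrl (215 ± 17.3 against 89.8 ± 1.11 CPM). Fitted within D1103, the log2 fold change was -1.14 ± 0.16 with siRagC1 and -1.04 ± 0.16 with siRagC2. Within D1221 it was -0.45 ± 0.11 with siRagC1 and -0.25 ± 0.11 with siRagC2. The difference between series was 0.69 ± 0.20 for siRagC1 (unadjusted p = 0.00252, edgeR adjusted p = 1.00) and 0.78 ± 0.20 for siRagC2 (unadjusted p = 0.000890, adjusted p = 0.735), so it did not pass over all genes. Among the 10 genes, IL11 alone had an unadjusted p under 0.05 in these tests. The log2 fold change of RRAGC was -2.04 ± 0.22 in D1103 and -1.12 ± 0.15 in D1221 with siRagC1, and -1.65 ± 0.21 and -0.95 ± 0.15 with siRagC2. The part of the knock-down depth in the IL11 values was not tested. With the D1221 libraries alone, IL11 did not pass with siRagC1 (adjusted p = 0.560) or siRagC2 (adjusted p = 0.528).

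**Figure D3:**
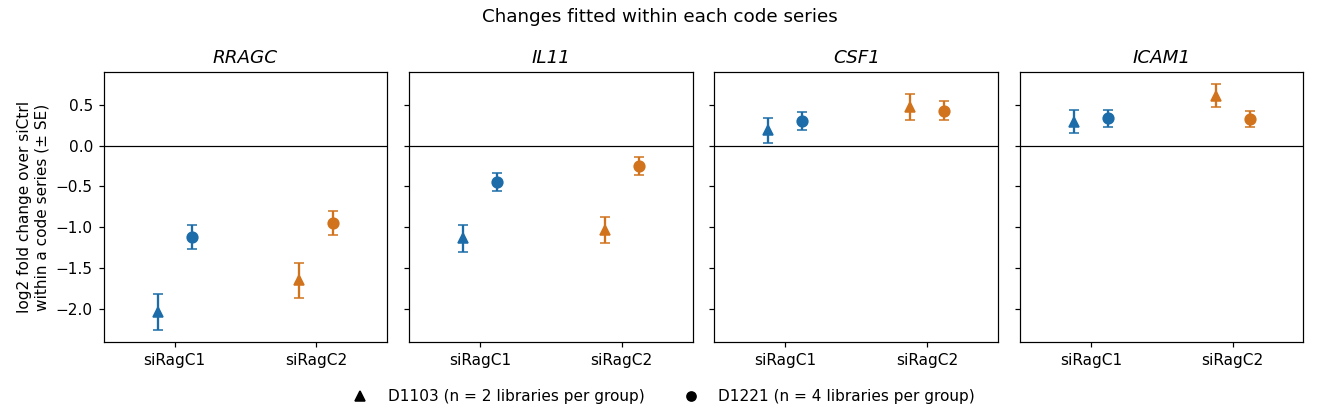
Log2 fold change over siCtrl (y axis, ± SE) of RRAGC, IL11, CSF1 and ICAM1 with each siRNA (x axis), fitted within D1103 (triangles, 2 libraries per group) and within D1221 (circles, 4 per group). RRAGC and IL11 lie further below 0 in D1103 with both siRNAs, while CSF1 and ICAM1 lie above 0 in both series.

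IL6 and LIF, the other IL6 family cytokines, did not pass the threshold. IL6 (ENSG00000136244), the founding member of the family, ran from 17.4 to 39.0 CPM with siRagC1 (median 34.8), from 30.7 to 42.5 CPM with siRagC2 (median 36.1) and from 19.3 to 38.0 CPM with siCtrl (median 28.9). The groups overlapped, though IL6 was higher in 6 of 6 same-numbered pairs with siRagC2 and in 3 of 6 with siRagC1. The log2 fold change was 0.15 ± 0.15 with siRagC1 (edgeR, adjusted p = 0.656), and 0.30 ± 0.15 for siRagC2 (adjusted p = 0.289). LIF, which maintains stem cells in mouse cultures and signals through LIFR, was the steadiest of the 10. It ran from 89.9 to 129 CPM with siRagC1 (median 107), from 95.8 to 112 CPM with siRagC2 (median 98.0) and from 81.2 to 128 CPM with siCtrl (median 103). Its log2 fold change was 0.06 ± 0.08 with siRagC1 (adjusted p = 0.742) and -0.05 ± 0.08 with siRagC2 (adjusted p = 0.806), and the siRNAs differed by 0.11 ± 0.08 (adjusted p = 0.781).

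The receptors of the family were measured in the same libraries. IL11RA, the receptor that IL11 binds, stood at 4.25 ± 0.699 CPM with siRagC1, 4.04 ± 0.927 CPM with siRagC2 and 3.98 ± 0.594 CPM with siCtrl (SD, n = 6 each). IL6R stood at 4.98 ± 1.10, 4.71 ± 0.412 and 3.99 ± 0.817 CPM, with log2 fold changes of 0.28 ± 0.12 (adjusted p = 0.209) and 0.24 ± 0.12 (adjusted p = 0.296). The line thus held few counts of either cytokine-binding chain. LIFR stood at 73.4 ± 11.5, 75.5 ± 8.64 and 65.7 ± 9.03 CPM, and the shared chain IL6ST at 380.4 ± 39.5, 375 ± 25.0 and 388 ± 31.1 CPM. Of 16 tested genes of the family's ligands, receptors and JAK-STAT signalling, 0 passed the edgeR threshold with either siRNA; 3 had an unadjusted p under 0.05 in each comparison, and DESeq2 and limma-voom called 0. With the replicate number as a block, CLCF1, another ligand of the family, fell with siRagC1 by 0.17 on the log2 scale (adjusted p = 0.0421).

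CXCL8, CXCL1 and CXCL2 varied more between libraries than between groups. CXCL8 (ENSG00000169429) ran from 14.02 to 58.0 CPM with siRagC1 (median 47.8), from 25.6 to 50.9 CPM with siRagC2 (median 43.8) and from 24.1 to 72.5 CPM with siCtrl (median 54.8). Its log2 fold change was -0.23 ± 0.19 for siRagC1 (edgeR, adjusted p = 0.592), and -0.29 ± 0.20 for siRagC2 (adjusted p = 0.486), lower in 4 of 6 pairs in each comparison. Like IL11, CXCL8 was higher in D1221 than in D1103 in every group with no overlap, with a D1221 mean of 1.86 times the D1103 mean with siRagC1, 1.57 times with siRagC2 and 1.97 times with siCtrl. CXCL1 (ENSG00000163739) ran from 7.67 to 24.5 CPM with siRagC1 (median 18.3), from 11.96 to 25.2 CPM with siRagC2 (median 18.02) and from 12.9 to 30.2 CPM with siCtrl (median 19.001). CXCL2 (ENSG00000081041) ran from 5.38 to 15.4 CPM with siRagC1 (median 11.2), from 9.48 to 14.7 CPM with siRagC2 (median 11.6) and from 6.85 to 14.9 CPM with siCtrl (median 11.3). The ranges overlapped for both genes. CXCL1 had log2 fold changes of -0.25 ± 0.26 with siRagC1 (adjusted p = 0.691) and -0.12 ± 0.26 with siRagC2 (adjusted p = 0.863). CXCL2 had -0.02 ± 0.21 (adjusted p = 0.977) and 0.08 ± 0.21 (adjusted p = 0.887), and changed sign in some of the alternatives.

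The values of CXCL1 and CXCL2 are uncertain as those of single genes, since their coding sequences are 93.5% identical and no source used here says how reads that fit both were counted. Of the 50-base windows of the CXCL1 transcript, 5.73% occur in that of CXCL2. CXCL3, another close copy, is 90.7% identical to CXCL1 and stood at 4.73 ± 1.26 CPM with siRagC1, 4.11 ± 0.685 CPM with siRagC2 and 5.04 ± 0.953 CPM with siCtrl. The receptors CXCR1 and CXCR2 had 0 counts in all 18 libraries. Of the 6 tested genes of other chemokines and chemokine receptors, edgeR called 0 with either siRNA, with 1 and 0 at an unadjusted p under 0.05. The 1 was the receptor CXCR4, with a log2 fold change of -0.23 ± 0.09 with siRagC1 (edgeR adjusted p = 0.190). DESeq2 and limma-voom also called 0.

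CSF1 (ENSG00000184371) was higher with the siRNAs in every same-numbered pair and passed the threshold with siRagC2. It ran from 391 to 568 CPM with siRagC1 (median 435), from 368 to 787 CPM with siRagC2 (median 487) and from 264 to 542 CPM with siCtrl (median 373). The groups overlapped across the series because D1103 libraries of every group lay above D1221 libraries: the D1221 mean was 0.732 times the D1103 mean with siRagC1, 0.656 times with siRagC2 and 0.675 times with siCtrl. Within D1221, CSF1 stood at 432, 393, 438 and 391 CPM with siRagC1, at 489, 484, 466 and 368 CPM with siRagC2, and at 386, 359.7, 333 and 264 CPM with siCtrl. There the siRagC1 libraries all lay above the controls, which was so in either direction for 3.71% of all genes, and siRagC2 replicate 6 lay below the highest control. Relative to the same-numbered control, CSF1 stood at 104% to 148% with siRagC1 and at 127% to 145% with siRagC2.

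The log2 fold change of CSF1 was 0.26 ± 0.09 with siRagC1 (edgeR adjusted p = 0.120; 0.27 ± 0.06 and adjusted p = 0.0120 with the replicate number as a block) and 0.44 ± 0.09 with siRagC2. The siRNAs differed by -0.18 ± 0.09, lower with siRagC1 in 5 of 6 pairs (unadjusted p = 0.0534, adjusted p = 0.645). The siRagC2 call was lost with D1103 alone (adjusted p = 0.206), with D1221 alone (adjusted p = 0.311) and with no series term (adjusted p = 0.322). The fold changes were of like size in the series: 0.18 ± 0.16 and 0.30 ± 0.11 with siRagC1 in D1103 and D1221, and 0.47 ± 0.16 and 0.43 ± 0.11 with siRagC2. CSF1R, the receptor of CSF1, stood at 8.90 ± 0.836 CPM with siRagC1, 9.06 ± 0.836 CPM with siRagC2 and 8.49 ± 0.827 CPM with siCtrl (SD, n = 6 each; log2 fold changes 0.06 ± 0.08 and 0.09 ± 0.08, adjusted p = 0.739 and 0.616).

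CSF2 (ENSG00000164400), the granulocyte-macrophage factor, did not pass the threshold. It ran from 20.5 to 39.3 CPM with siRagC1 (median 32.4), from 25.4 to 34.4 CPM with siRagC2 (median 30.3) and from 27.5 to 44.1 CPM with siCtrl (median 33.5), with overlapping ranges. It was lower in 5 of 6 pairs with each siRNA, and its log2 fold change was -0.16 ± 0.14 for siRagC1 (edgeR, adjusted p = 0.611), and -0.21 ± 0.15 for siRagC2 (adjusted p = 0.488). Of its receptor chains, CSF2RA was listed at 0 in every library and CSF2RB had 3 counts in all 18 together. Of 2 tested genes among colony-stimulating factor receptors and other ligands, CSF1R and CSF3, edgeR called 0, with 0 at an unadjusted p under 0.05, and DESeq2 and limma-voom called 0.

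IL1B (ENSG00000125538) had the lowest level, with 93 to 638 counts per library. It ran from 6.13 to 9.55 CPM with siRagC1 (median 9.01), from 6.10 to 8.82 CPM with siRagC2 (median 7.63) and from 6.31 to 10.05 CPM with siCtrl (median 7.47). The ranges were nearly the same, and the log2 fold change was 0.10 ± 0.11 for siRagC1 (edgeR, adjusted p = 0.688), and -0.06 ± 0.11 for siRagC2 (adjusted p = 0.843). Its receptor IL1R1 did pass: it stood at 27.5 ± 1.30 CPM with siRagC1, 28.7 ± 1.36 CPM with siRagC2 and 24.2 ± 1.94 CPM with siCtrl (SD, n = 6 each). It rose with siRagC2 by 0.25 ± 0.06 (adjusted p = 0.0162) and had 0.19 ± 0.05 with siRagC1 (adjusted p = 0.0773; 0.0494 with the replicate number as a block). It was the only 1 of 11 tested genes of the IL1 system called by edgeR with siRagC2; with siRagC1 there were 0, with 3 at an unadjusted p under 0.05 1 called by DESeq2 and 1 by limma-voom. With the block, 2 more were called with siRagC1: PYCARD, an inflammasome adaptor, higher by 0.28 (adjusted p = 0.0443), and NLRP3, an inflammasome sensor, at -0.34 (adjusted p = 0.0376).

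ICAM1 (ENSG00000090339), the adhesion receptor, was higher in 6 of 6 same-numbered pairs with each siRNA. Both sets of pairs use the same 6 control libraries. It stood at 131 to 191 CPM with siRagC1 (median 162), at 131 to 242 CPM with siRagC2 (median 165) and at 105 to 149 CPM with siCtrl (median 136). In D1103 the libraries were at 162 and 191 CPM with siRagC1, at 242 and 199.7 CPM with siRagC2, and at 149 and 139 CPM with siCtrl, with no overlap. Non-overlap with siCtrl in D1103 was found for 48.3% of all genes with siRagC1 and 50.2% with siRagC2. In D1221 the lowest knock-down library of each siRNA, replicate 6, at 131 CPM, lay below siCtrl replicates 3 and 4, at 135 and 138 CPM. It averaged 162 ± 19.1 CPM with siRagC1, 176 ± 39.1 CPM with siRagC2 and 130.1 ± 16.9 CPM with siCtrl (SD, n = 6 each).

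The log2 fold change of ICAM1 was 0.43 ± 0.09 with siRagC2, past the threshold, and 0.32 ± 0.09 with siRagC1 (edgeR adjusted p = 0.0583; 0.32 ± 0.07 and adjusted p = 0.0117 with the replicate number as a block). With siRagC1 it lay so near the threshold that 10 of 28 alternatives called it, among them DESeq2 (adjusted p = 0.0166), limma-voom (0.0413) and the fits without siCtrl replicate 3 or 4, siRagC1 replicate 6 or siRagC2 replicate 1 or 6. The siRagC2 call was lost with D1221 alone, where the fold change was 0.33 ± 0.10 (adjusted p = 0.334), and with no series term (adjusted p = 0.165). The siRNAs differed by -0.11 ± 0.09 (adjusted p = 0.816). The integrin chains that bind ICAM1 had few counts: ITGAL had 9 counts in all 18 libraries together, and ITGB2 stood at 1.98 ± 0.327 CPM with siRagC1, 2.61 ± 0.885 CPM with siRagC2 and 2.07 ± 0.645 CPM with siCtrl. Of 8 tested integrin partners, ICAM relatives and actin linkers, edgeR called 0, with 0 and 2 at an unadjusted p under 0.05. DESeq2 called 0 with siRagC1 and 1 lower with siRagC2, and limma-voom called 0.

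Between siRagC1 and siRagC2, 0 of the 10 genes passed in edgeR, DESeq2 or limma-voom, and 0 had an unadjusted p under 0.05. Over all genes edgeR called 0, which is 0%, with 1187 at an unadjusted p under 0.05, while DESeq2 called 29 and limma-voom 0. The libraries of the siRNAs overlapped for all 10 genes, against 0.229% of all genes that did not. The SE of these differences ran from 0.08 for LIF to 0.26 for CXCL1 on the log2 scale, and a missed threshold does not show that the siRNAs act alike.

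Levels can be compared between genes only per length, here as CPM per kilobase of exon in GENCODE 29, which is not the annotation used by the authors. On that scale, over both series, CSF1 and IL11 had the highest means in every group, with 85.6 ± 14.9 and 44.4 ± 24.3 with siRagC1, 98.0 ± 26.6 and 50.4 ± 27.3 with siRagC2, and 71.9 ± 17.9 and 64.9 ± 24.7 with siCtrl (SD, n = 6 each). In siCtrl they were followed by CSF2 at 44.3 ± 8.43, ICAM1 at 35.1 ± 4.57, LIF at 26.1 ± 3.93 and CXCL8 at 22.9 ± 8.04. CXCL1 at 15.9 ± 5.42, IL6 at 14.3 ± 3.23, CXCL2 at 7.55 ± 1.94 and IL1B at 2.53 ± 0.466 came last. The place of IL11 depended on the series. Within D1103 it stood at 15.3 ± 1.51 with siRagC1 and 16.4 ± 0.369 with siRagC2, below CSF1, ICAM1, CSF2 and LIF (SD, n = 2 each). With siRagC2, CXCL1 also stood above IL11, at 17.3 ± 3.08. With siCtrl, IL11 stood at 33.6 ± 0.414, below CSF1, CSF2 and ICAM1. Within D1221 it came after CSF1 with both siRNAs, and in siCtrl it stood above CSF1, at 80.5 ± 6.48 against 61.9 ± 9.66 (SD, n = 4). Over both series, neighbours in the siCtrl order overlapped in their ranges over libraries, apart from CXCL2 and IL1B. With both siRNAs ICAM1 stood above CSF2, and IL6 above CXCL1. In siCtrl, CSF1 lay at the 96.9th percentile of tested genes per length and IL1B at the 36.7th.

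Several pairs of genes varied together from library to library. After each series mean was subtracted from log2(CPM + 0.5), CSF1 and ICAM1 had a Pearson correlation of 0.907 over the 18 libraries (Spearman 0.915, and 0.853 without the 2 libraries farthest from the median of CSF1). With the group means also removed it was 0.797. CXCL1 and CXCL2 had 0.896 (Spearman 0.880; 0.918 with group means removed), and the part of reads that fit both genes was not tested. CXCL8 and CSF2, on different chromosomes, had 0.885 (Spearman 0.820; 0.872 with group means removed). IL6 went with the chemokines to unlike degrees. It had 0.885 with CXCL2, 0.723 with CXCL1 and 0.634 with CXCL8 (Spearman 0.789, 0.598 and 0.439). Without the 2 extreme libraries these values were 0.785, 0.547 and 0.260. With group means removed they were 0.948, 0.880 and 0.913. CSF1 had 0.151 against CXCL2, 0.114 against CXCL1 and -0.247 against CXCL8. IL6 also went with the other pair, at 0.476 with CSF1 (Spearman 0.647; 0.250 with group means removed) and 0.627 with ICAM1 (Spearman 0.682; 0.538 with group means removed). With group means removed, ICAM1 had 0.673 with CXCL1, so the pairs do not form separate sets. IL11 and ICAM1 ran opposite, at -0.651 (Spearman -0.542; -0.529 without the extreme libraries), but with group means removed the value was -0.275. The libraries share group, number and depth, and these values are descriptions with no test.

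Within D1103, most of the genes were higher in replicate 2 than in replicate 1. Replicate 2 exceeded replicate 1 in all 3 groups for 7 of the 10 genes, IL6, LIF, CXCL8, CXCL1, CXCL2, CSF2 and IL1B, against 17.1% of all genes. In siRagC1 the excess reached 3.20 times for CXCL1, 3.03 times for CXCL8 and 2.87 times for CXCL2. In siRagC2 it was 1.29, 1.36 and 1.29 times for these genes, and in siCtrl 1.72, 1.63 and 1.64 times. IL11, CSF1 and ICAM1 did not show it: replicate 2 was above replicate 1 in 1 of the 3 groups for each. Between the series, 3 of the 10 genes, IL11, CXCL8 and CSF1, were separated in all 3 groups in the same direction, against 21.1% of all genes.

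**Figure D4:**
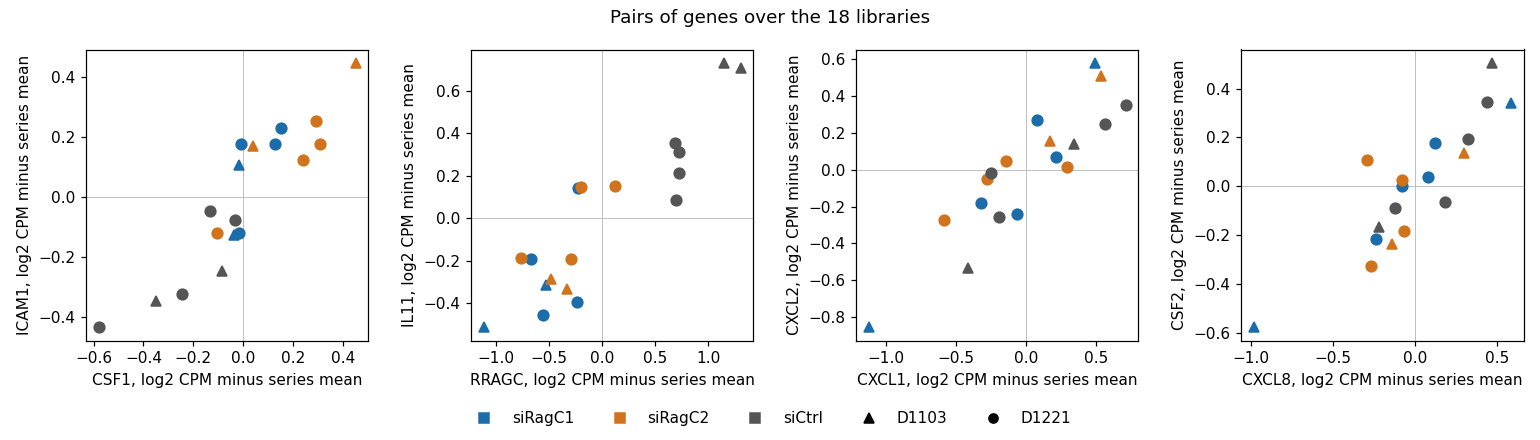
Each point is 1 of the 18 libraries, plotted by log2(CPM + 0.5) of a gene minus its code series mean on both axes, for CSF1 and ICAM1, RRAGC and IL11, CXCL1 and CXCL2, and CXCL8 and CSF2; colours give the group and shapes the series. ICAM1 follows CSF1 with the control libraries toward the low end, and IL11 follows RRAGC with the control libraries toward the high end. Some control and knock-down libraries overlap in CSF1, ICAM1 and IL11. siRagC1 replicate 1 is the lowest point in both chemokine panels.

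The genes most like IL11, CSF1 and ICAM1 were found by the same correlation among tested genes of at least 5 CPM. IL11 was most like MTA2, a subunit of a chromatin-remodelling deacetylase complex, at 0.924, NSUN2, an RNA methyltransferase, at 0.902, and RRAGC itself at 0.900 (Spearman 0.839). The correlation of IL11 with RRAGC was 0.829 without the 2 libraries farthest from the median of IL11, and 0.707 with group means removed. CSF1 was most like SLC35E2B, named for its likeness to sugar transporters, at 0.937, EPAS1, a hypoxia-inducible factor, at 0.919, and B4GAT1, a glycosyltransferase, at 0.917. ICAM1 was most like TNS3, a focal adhesion protein, at 0.931, LRRC8E, a volume-regulated anion channel subunit, at 0.915, and OPTN, an autophagy receptor, at 0.901. These were picked as the 3 highest of all such genes for each member. Apart from the 0.707 for RRAGC, the correlations still hold the difference between siRNA and control libraries, by which IL11, CSF1 and ICAM1 were chosen.

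Regulators upstream of the members, from lists drawn up with earlier results known, mostly missed the threshold. The 11 lists of receptors, regulators and related secreted genes held 131 tested genes. With siRagC1, 2 of them rose and 3 fell, against 1.41% and 0.627% of all genes. With siRagC2, 2 rose and 1 fell, against 1.87% and 1.36% of all genes. In the fit with the replicate number as a block, 5 rose and 8 fell with siRagC1, while 7 rose and 5 fell with siRagC2. That fit also called more genes in all. It called 864 of the 15307 tested genes with siRagC1 and 986 with siRagC2, against 312 and 495 in the main fit. Among 22 tested NF-kB subunits, inhibitors and targets, NFKB1, the gene of the p50 subunit, fell with siRagC1 by 0.14 ± 0.04 on the log2 scale (edgeR adjusted p = 0.0408) and had -0.09 ± 0.04 with siRagC2 (adjusted p = 0.201). It stood at 82.3 ± 4.82 CPM with siRagC1, 85.5 ± 2.37 CPM with siRagC2 and 90.9 ± 3.85 CPM with siCtrl. With siRagC1, 6 of the list were lower and 0 higher at an unadjusted p under 0.05, which 2613 of all 15307 tested genes had in either direction. DESeq2 called 2 of the list, limma-voom 1 and the block fit 2. With the block BIRC2, an inhibitor of apoptosis, stood at -0.24 (adjusted p = 0.0264). edgeR called 0 genes of that list with siRagC2, with 4 at an unadjusted p under 0.05, 1 called by DESeq2 and 1 by limma-voom; with the block CD83, a surface protein of activated immune cells, was called at -0.29 (adjusted p = 0.0483). The list's median log2 fold change was -0.08 with siRagC1 and -0.03 with siRagC2. TNF had 2 counts in all libraries together.

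Of 11 tested AP-1 subunits, edgeR called 0 with either siRNA, with 2 at an unadjusted p under 0.05 in each comparison; DESeq2 and limma-voom called 0. JUND rose with siRagC2 by 0.32 (adjusted p = 0.0289) with the replicate number as a block. Of 14 tested genes of the TGF-beta pathway, which is known to induce IL11 in this line's bone-seeking derivatives, edgeR called 0, with 3 and 6 at an unadjusted p under 0.05. DESeq2 called 2 of them with siRagC1 and 3 with siRagC2, and limma-voom 1 and 2. CCN2, a matricellular target of that pathway, stood at 144 CPM with siRagC1, 155 CPM with siRagC2 and 201 CPM with siCtrl on average. Its log2 fold change was -0.50 ± 0.13 with siRagC1 (adjusted p = 0.0548; 0.0112 with the block) and -0.40 ± 0.13 with siRagC2 (adjusted p = 0.0994; 0.0316 with the block). With the block TGFB3 and SMAD7 rose with siRagC2, by 0.42 (adjusted p = 0.0469) and 0.27 (adjusted p = 0.0397), and TGFBR1 rose with siRagC1 by 0.20 (adjusted p = 0.0431). CCN2, JUND, TGFB3, SMAD7, TGFBR1, CLCF1, CXCR4, PYCARD, NLRP3, BIRC2, CD83, ZFP36, VEGFC and IL24 were named after their values were seen. Of 11 factors that bind AU-rich elements or act in the decay of such mRNAs, a route by which cytokine transcripts are short-lived, edgeR, DESeq2 and limma-voom called 0, with 1 at an unadjusted p under 0.05 in each comparison. With the block ZFP36, which promotes that decay, rose with siRagC2 by 0.26 (adjusted p = 0.0234).

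Among 19 other tested cytokines and growth factors, GDF15, a stress-induced cytokine, and HBEGF, a ligand of the EGF receptor, passed with both siRNAs. HBEGF fell to 56.6 ± 4.73 CPM with siRagC1 and 58.4 ± 4.18 CPM with siRagC2, against 70.8 ± 3.25 CPM with siCtrl (SD, n = 6 each; log2 fold changes -0.33 ± 0.05 and -0.28 ± 0.05, edgeR adjusted p = 0.00109 and 0.00352). GDF15 rose to 12.5 ± 1.203 CPM with siRagC1 and 13.5 ± 2.53 CPM with siRagC2, against 7.69 ± 2.56 CPM with siCtrl (log2 fold changes 0.69 ± 0.17 and 0.81 ± 0.17, adjusted p = 0.0426 and 0.0154). TNFSF15, a ligand of the TNF superfamily, fell with siRagC1 by 0.88 ± 0.21 (adjusted p = 0.0332) and had -0.61 ± 0.21 with siRagC2 (adjusted p = 0.111; 0.0259 with the block). Of 11 interferon-stimulated genes, IFIH1, a sensor of double-stranded RNA, rose with siRagC1 by 0.42 ± 0.08 (adjusted p = 0.0124), against 0.21 ± 0.09 with siRagC2 (adjusted p = 0.192). With siRagC1, 4 of that list were higher and 0 lower at an unadjusted edgeR p under 0.05, and DESeq2 and limma-voom each called 1. With siRagC2, 2 were higher and 1 lower at that level, and edgeR, DESeq2 and limma-voom called 0.

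**Figure D5:**
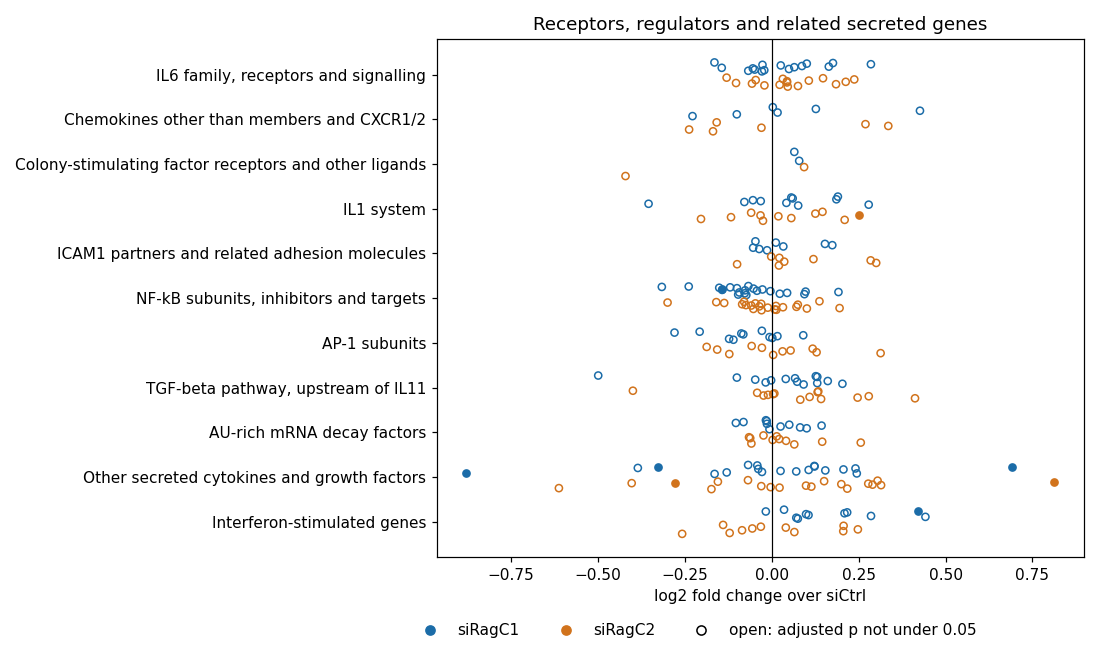
Log2 fold change over siCtrl (x axis) of each tested gene of the 11 lists (y axis) with siRagC1 and siRagC2; filled points passed an adjusted p under 0.05. Most genes lie near 0, and the filled points furthest from 0 are GDF15 with both siRNAs (0.69 and 0.81) and TNFSF15 with siRagC1 (-0.88).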

How the data were processed

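Raw counts for each gene, unnormalized, are what the authors deposited, as 1 table covering all 18 libraries (500 ng of total RNA each, per the labels). The submitters' processing notes name cutadapt 0.6.2, STAR 2.7.6a and the build GRCh37/hg19; how and on which strand reads were counted, and with which annotation, was not found in the sources used here. Groups and replicate numbers came from the labels. Chi-square values between replicates of a group ran from 2.81 to 81.7 per gene, so no library duplicated another of its group; pairs across groups were not compared.

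The main fit used edgeR 4.0.16 in R 4.3.3: a robust quasi-likelihood fit of group and code series over all libraries, after filterByExpr by group and TMM scaling. SE is the absolute log2 fold change over the square root of F. Of 57820 identifiers, 51996 had a symbol. Correlations used log2(CPM + 0.5). The procedure was run on simulated data. The pass mark there covered only fold changes larger than those of the members in the main fit. Recovery of smaller changes is not reported here. Lengths came from GENCODE 29, and motifs were searched with Python 3.11.15.

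The members, the 16 lists (198 genes, 194 matched) and the tests were chosen with earlier results of these data known. The text names all members, RRAGC, the members' receptors, up to 4 called genes per list other than the marker lists, and the 3 genes most like IL11, CSF1 and ICAM1; others are marked or belong to the markers.

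Same-numbered libraries had residual correlations of 0.106 to 0.705 for siRagC1 with siCtrl, 0.172 to 0.578 for siRagC2 with siCtrl and 0.289 to 0.656 between the siRNAs. These values include the shared series, and no values for libraries of unlike number are given. Whether the numbers pair the libraries was therefore not tested. The main fit has no block, and ratios of same-numbered libraries are descriptions. The alternatives tried were RLE factors, no filter on low counts, at least 5 CPM in 6 libraries, limma-voom (limma 3.58.1), DESeq2 1.42.0, the replicate block, no series term, the compared groups alone, each series alone and each library left out.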

Additional observations from a re-analysis of the deposited data

Results flagged for a closer look

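In 30 groups of 6 libraries (10 genes in 3 groups), a library was looked for whose gap to its nearest neighbour exceeded 0.625 of the group's range, a limit that chance passes in about 1 in 20 groups. IL6 in siRagC1 replicate 1 stood at 17.4 CPM, below the other 5 libraries of its group (gap ratio 0.688). CXCL8 in the same library stood at 14.02 CPM (gap ratio 0.647). In that group CXCL8 was lower in D1103, the series of this library, than in D1221, with no overlap. LIF in siRagC2 replicate 2 stood at 112 CPM, above the other 5 (gap ratio 0.776). siRagC1 replicate 1 was also the lowest library of its group for CXCL1, CXCL2, CSF2 and IL1B, at 7.67, 5.38, 20.5 and 6.13 CPM, but not for IL11, CSF1 or ICAM1.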

How the results depend on the processing

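Counts of called genes depended strongly on the fit. With siRagC1, 312 genes were called in the fit reported; 799 with no filter on low counts, 778 with DESeq2, 491 with limma-voom, 864 with the replicate block, 7 with no series term, 126 with the compared groups alone, 554 with D1103 alone and 1 with D1221 alone, and 78 to 893 with single libraries left out (78, 118, 148, 184, 192 and 893 without siRagC1 replicates 2, 1, 3, 4, 5 and 6; 93, 103 and 176 without siCtrl replicates 1, 2 and 5). With siRagC2, 495 were called; 843, 1005, 751, 986 and 19 under the first 5 of these settings, 1149 with D1103 alone and 1 with D1221 alone, and 197 to 644 with single libraries left out (197 and 290 without siCtrl replicates 1 and 2, 201 and 207 without siRagC2 replicates 1 and 4). Between the siRNAs, 0 were called; 219 with no filter, 29 with DESeq2, 231 with D1103 alone, and 0 to 78 with single libraries left out (78 and 31 without replicate 6 of siRagC1 and of siRagC2).

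Of the 10 genes, 1 was called with siRagC1 in the fit reported, 5 with no filter, 2 with the 5 CPM filter, DESeq2 or limma-voom, 3 with the replicate block, 0 with no series term or D1221 alone, and 0 to 2 with single libraries left out. With siRagC2, 3 were called, 6 with no filter, 0 with no series term or D1221 alone, and 2 to 3 with single libraries left out. Between the siRNAs 0 were called, with 1 under no filter and 0 to 0 with single libraries left out. For a difference of effect between series 0 were called, with 3 under no filter. The share of all genes called in that test with no filter is not given, so nothing is read from the 3. The replicate block lost the call of IL11 with siRagC2 and added CSF1 and ICAM1 with siRagC1; it changed no other call among the 10 genes.

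Over the log2 fold changes of the 10 genes in 3 comparisons, 776 values under alternatives kept direction and side of the threshold, 18 newly passed, 20 no longer passed and 26 changed sign, all 26 in genes that had not passed. With siRagC1, CXCL2 was 0.16 in D1103 alone and -0.19 to 0.13 with single libraries left out. With siRagC2, CXCL1 was 0.35 in D1103 alone and -0.25 to 0.012, CXCL2 was -0.16 in D1221 alone and -0.039 to 0.17, LIF was -0.10 to 0.0058 and IL1B -0.12 to 0.0033 with single libraries left out. Between the siRNAs, CXCL8 was -0.015 with limma-voom, -0.12 in D1103 alone and -0.12 to 0.21 with single libraries left out, CXCL1 was 0.10 in D1221 alone and -0.30 to 0.062, CXCL2 was 0.046 in D1221 alone and -0.29 to 0.060, CSF2 was -0.027 in D1103 alone and -0.049 to 0.16, and ICAM1 was 0.0037 in D1221 alone. The causes were not tested. With no series term, CSF1 and ICAM1 with siRagC2 had adjusted p of 0.322 and 0.165. Depth limits IL1B and CXCL2 most, at 93 and 164 counts in their lowest libraries.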
